A study of Mus musculus with 12 samples.

Results

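Bhlhe41 and the genes of the circadian clock were described in whole testes of 2-week-old C57BL/6N mice. The gene list held 10 named members, chosen because Bhlhe41 stood out in these arrays and the others are its partners in the clock. Of these, 9 were measured on a transcript cluster (the array's unit for 1 transcript locus) that the platform annotation gives to 1 gene, out of 22180 such genes in all. Per2, a core repressor of the clock, is annotated together with another gene on its cluster and was dropped by that rule. The testes came from 4 groups of 3 mice, each testis on its own Affymetrix array. They were Sox3-KO mice (KO), which lack the X-linked SoxB1 transcription factor gene Sox3, Sox3-Sox2KI mice (KI), named for a Sox2 gene knocked into the Sox3 locus, WT testes from the KI litters (numbered WT 1 to WT 3) and WT testes from the KO litters (WT 4 to WT 6), where WT is wild type. Both alleles were made with CRISPR/Cas9. The labels name no treatment and no Cre or tissue-specific promoter, and the sources used here do not give the number of founder lines or the hour of dissection.

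The clock is a feedback loop of transcription. ARNTL (also called BMAL1) and CLOCK bind E-box sites and activate the Per and Cry genes, whose proteins block ARNTL and CLOCK in turn. BHLHE40 and BHLHE41 (DEC1 and DEC2) repress the same E-box genes, NR1D1 (REV-ERB alpha) represses Arntl, and DBP carries the rhythm to output genes. The testis is known as a tissue in which daily cycling of these genes is weak or disputed.

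The E-box is the sequence through which this loop is closed, so the promoters that hold it are shown first. RefSeq promoter windows on GRCm38.p6 were found for 8 of the 9 measured members, in 10 windows, and the 250 bases before the annotated start were searched on both strands. The motifs were the E-box CACGTG, the nuclear receptor half-site AGGTCA and the SOX-type motif ATTGTT. An E-box was found in 3 of the 10 windows, those of Bhlhe41, Cry1 and 1 of Per1, against 6.02% of all 32851 windows of that length. A half-site was found in 1 window, of Per1 (14.0% of all windows), and a SOX-type motif in 1 window, of Nr1d1 (9.42%). These matches describe letters and not binding. Capitals below mark the E-box in Bhlhe41 and Cry1, the E-box followed by the half-site in Per1, and the SOX-type motif, read on the other strand, in Nr1d1. Each sequence runs 5′ to 3′ along the gene and ends at the base before the start.
Bhlhe41, chr6:145865421-145865670, minus strand: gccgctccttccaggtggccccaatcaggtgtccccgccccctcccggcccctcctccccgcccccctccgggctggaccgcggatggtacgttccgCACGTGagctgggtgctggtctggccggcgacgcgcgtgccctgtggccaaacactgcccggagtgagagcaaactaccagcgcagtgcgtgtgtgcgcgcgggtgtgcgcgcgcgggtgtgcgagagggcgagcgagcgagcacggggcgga
Cry1, chr10:85185055-85185304, minus strand: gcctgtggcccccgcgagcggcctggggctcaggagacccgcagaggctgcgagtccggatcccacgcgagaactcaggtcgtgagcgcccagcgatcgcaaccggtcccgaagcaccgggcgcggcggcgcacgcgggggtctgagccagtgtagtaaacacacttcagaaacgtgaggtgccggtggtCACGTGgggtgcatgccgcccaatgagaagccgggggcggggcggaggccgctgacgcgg
Per1, chr11:69098699-69098948, plus strand: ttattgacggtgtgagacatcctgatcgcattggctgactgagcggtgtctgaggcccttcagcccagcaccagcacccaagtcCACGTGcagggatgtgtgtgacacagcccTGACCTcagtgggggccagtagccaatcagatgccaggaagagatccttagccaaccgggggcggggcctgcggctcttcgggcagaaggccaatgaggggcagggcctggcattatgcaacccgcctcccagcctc
Nr1d1, chr11:98775378-98775627, minus strand: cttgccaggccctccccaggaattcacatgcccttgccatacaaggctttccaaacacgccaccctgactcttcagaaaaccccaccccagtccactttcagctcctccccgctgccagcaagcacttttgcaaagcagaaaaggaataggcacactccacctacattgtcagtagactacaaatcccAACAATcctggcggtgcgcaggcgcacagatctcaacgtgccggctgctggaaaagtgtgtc
Counted from the start, the E-box began at -153 in Bhlhe41, at -60 in Cry1 and at -166 in Per1, whose half-site, read on the other strand, began at -137. No SOX-type motif was found in the Bhlhe41 window.

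The arrays gave log2 levels, on which a difference of 1 is a doubling. Array medians lay between 5.74 and 5.82. Olfactory receptor genes, which are silent in most tissues, served as a background, and the 95th percentile of their levels was 5.33. All 9 measured members lay above it. Sox3, the targeted gene, averaged 7.28 ± 0.06 over the 6 WT testes (SD) and 6.61 ± 0.04 over the 3 KO testes (SD), and fell by 0.68 (limma adjusted p = 0.0161). The library labelled KI 1 was at 7.26, within the WT range of 7.21 to 7.36, and the other KI testes at 6.75 and 6.95. Sox2, the gene the KI label names, was listed at 4.51, 4.31 and 4.16 in KI 1, KI 2 and KI 3, all below the background of 5.33, and its KI difference of 0.29 from WT did not pass (adjusted p = 0.945). The arrays thus do not show Sox2 above background in the libraries labelled KI. Whether the Sox3 probes lie in the replaced part is not stated in the sources. The KI results were therefore also taken without KI 1, which gave a Bhlhe41 difference of -0.02 from WT and no call among the other members. Markers of Sertoli, Leydig, peritubular, macrophage and endothelial cells were all above background, while all 4 measured epididymis markers and the 1 measured erythroid marker were at or below it in their mean over the arrays.

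Bhlhe41 was higher in KO testes. The repressor gene stood at 6.91, 6.94 and 7.01 in KO 1, KO 2 and KO 3. In the WT testes it ran from 6.15 through a median of 6.34 to 6.47, and in KI 1, KI 2 and KI 3 it was 6.30, 6.38 and 6.20. The 3 KO testes lay above all other testes, by 0.45 over the highest WT and 0.53 over the highest KI, while KI and WT overlapped fully. The KO range of 0.09 was narrower than the WT range of 0.31. The mean and SD were 6.95 ± 0.05 for the 3 KO, 6.31 ± 0.13 for the 6 WT and 6.29 ± 0.09 for the 3 KI testes. The KO difference of 0.64 (SE 0.08, 95% interval 0.47 to 0.82) corresponds to a 1.56-fold higher level, and the KI difference was -0.02 (interval -0.19 to 0.16). Bhlhe41 was chosen for this change, so these values carry no test. It ranked 67 of 22180 genes from the most raised in KO testes.

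**Figure D1:**
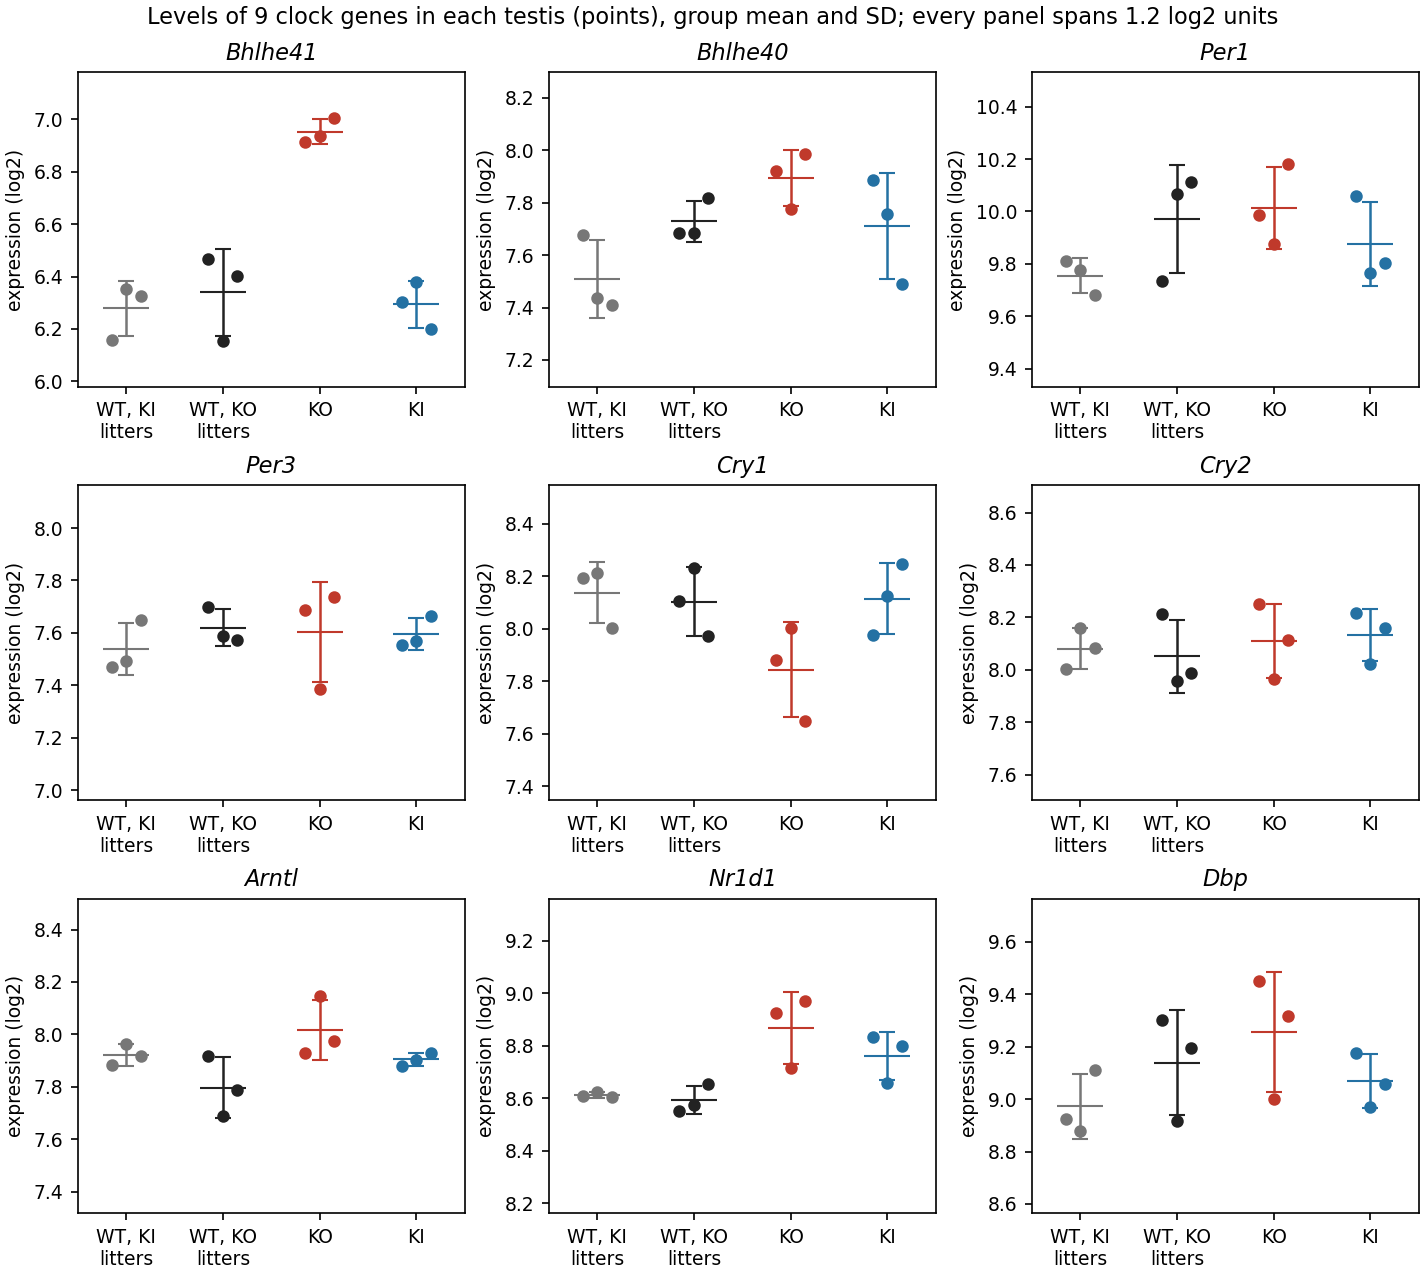
Log2 expression of 9 clock genes (y axis, each panel 1.2 log2 units tall) in the 4 groups (x axis), with a point per testis, the group mean as a wide bar and the SD as whiskers. The 3 KO points of Bhlhe41, from 6.91 to 7.01, stand clear of all others, whereas for Per3, Cry2 and Dbp the groups overlap. For Per1 the KO points overlap every group but the WT testes of KI litters.

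Either set of WT litters gave a Bhlhe41 difference of like size. The gene averaged 6.28 ± 0.11 over the WT testes of KI litters (SD, n = 3) and 6.34 ± 0.17 over those of KO litters (SD, n = 3). The KO difference was 0.61 (interval 0.40 to 0.82) against the KO littermates and 0.67 against the KI littermates. With any 1 of the 12 arrays left out it stayed between 0.61 and 0.67.

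None of the 8 other measured members passed the test in KO testes. This was limma's moderated test with Benjamini-Hochberg adjustment over all 22180 genes at 0.05, by which 1078 genes, or 4.86%, were called (558 higher, 2.52%, and 520 lower, 2.34%). A count of 0 of 8 is near that background. At an unadjusted p under 0.05 the count was 3 of 8 (Bhlhe40, Cry1 and Nr1d1), beside 24.2% of all genes. The number of calls over all genes moved with single arrays. It was 2 without KO 3, 3 without KO 1, 18 to 36 without WT 1, WT 2, WT 3 or WT 5, 463 without KI 3, 608 without KI 2, 1748 without WT 6 and 2323 without KO 2. No member differed as much as Bhlhe41. That gene was chosen for its large change, so this ranking was nearly fixed in advance and is no test of the other members. The 8 differences ran from -0.28 to 0.27 around a median of 0.15, where the 22180 genes had a median of 0.04. Without sign the median size was 0.18 for the members and 0.12 for all genes.

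Bhlhe40, the paralog of Bhlhe41 and the other DEC repressor, had the largest positive difference of the 8. It was 7.92, 7.78 and 7.98 in KO 1 to KO 3, from 7.41 to 7.82 (median 7.68) in WT, and 7.89, 7.76 and 7.49 in KI 1 to KI 3. KO 2 lay within the WT range, as did 2 of the KI testes. The KO difference was 0.27 (SE 0.11, interval 0.04 to 0.51, adjusted p = 0.146). It was 0.16 (adjusted p = 0.507) against the KO littermates and 0.38 (adjusted p = 0.065) against the KI littermates. The WT testes of the KI litters were at 7.51 ± 0.15 (SD, n = 3) and those of the KO litters at 7.73 ± 0.08 (SD, n = 3), a difference of -0.22 that did not pass (adjusted p = 0.891).

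Nr1d1, the nuclear receptor that represses Arntl, came nearest to the threshold. Its level was 8.92, 8.71 and 8.97 in KO 1 to KO 3, while the WT testes ran only from 8.55 to 8.66 with a median of 8.61. In KI 1, KI 2 and KI 3 it was 8.83, 8.66 and 8.80. All KO and all KI testes lay above all WT testes, KI 2 by a small margin. Groups that do not overlap were seen for 11.5% of all genes in KO and 3.10% in KI testes, and among the 8 members only for Nr1d1 in either comparison. The KO difference was 0.27 (SE 0.07, interval 0.11 to 0.42), which missed the threshold narrowly (adjusted p = 0.050004). A two-sided exact permutation test gave p = 0.0238, the lowest value 84 splits allow, and was 1 of 16 such single-gene tests against WT. In KI testes the difference was 0.16 (interval 0.01 to 0.31, adjusted p = 0.947), and the exact permutation p was again 0.0238. Without KO 2 the KO difference was 0.34 (adjusted p = 0.0138) and without WT 6 it was 0.28 (adjusted p = 0.0448), both past the threshold. With any 1 of the other 10 arrays left out it did not pass, with differences down to 0.22 and adjusted p up to 0.198. Against the KO littermates alone it was 0.28 (adjusted p = 0.189).

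Arntl, the activator that NR1D1 represses, was 7.93, 8.15 and 7.98 in KO 1 to KO 3, from 7.69 to 7.96 in WT (median 7.90), and 7.88, 7.90 and 7.93 in the KI testes. KO 1 lay within the WT range, and the KI testes lay below every KO testis, KI 3 (7.93) by less than the rounding. Such a gap between KI and KO was seen for 22.1% of all genes and, among the 8 members, only for Arntl. The KO difference of 0.16 did not pass (interval -0.01 to 0.32, adjusted p = 0.223), and it was 0.22 against the KO littermates (adjusted p = 0.245). It was 0.09 without KO 2, and 0.10 against the KI littermates. Arntl and its repressor Nr1d1 were both above the WT mean in every KO testis, as were Bhlhe40 and Per1. Arntl and Nr1d1 were also above it in every KI testis. Against the KO littermates Arntl and Nr1d1 were the 2 of 8 members whose groups did not overlap, beside 17.3% of all genes.

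The Per and Cry repressors gave no call either. Cry1 was the only one of the 8 members with a negative KO difference. It was 7.88, 8.004 and 7.65 in KO 1 to KO 3, from 7.97 to 8.23 in WT (median 8.15) and 7.98, 8.12 and 8.25 in KI testes. KO 2 overlapped the WT range and KO 3 was the lowest of the 12 testes. The difference was -0.28 (SE 0.10, interval -0.48 to -0.07, adjusted p = 0.102). Without KO 3 it was -0.18 (adjusted p = 0.376). With the fit limited to genes above the median level limma called it (adjusted p = 0.0434). Cry2, the paralog, had a mean and SD of 8.11 ± 0.14 over the 3 KO, 8.07 ± 0.10 over the 6 WT and 8.13 ± 0.10 over the 3 KI testes. Its KO difference was 0.04 (interval -0.14 to 0.23, adjusted p = 0.795).

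Per1 was 9.99, 9.87 and 10.18 in KO 1 to KO 3, from 9.68 to 10.11 in WT (median 9.79) and 10.06, 9.77 and 9.80 in KI testes, and the 3 groups overlapped. The KO difference was 0.15 (interval -0.10 to 0.40, adjusted p = 0.461). It was 0.07 without KO 3, 0.22 without KO 2, 0.04 against the KO littermates and 0.26 against the KI littermates. Per3 was 7.69, 7.39 and 7.74 in KO 1 to KO 3 and 7.47 to 7.70 in WT, and the KO difference of 0.03 (interval -0.16 to 0.21, adjusted p = 0.886) had no stable sign, at -0.02 against the KO littermates. KO 2 held the lowest Per3 value of the series and KO 3 the highest.

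Dbp, the output activator, was 9.45, 9.002 and 9.32 in KO 1 to KO 3, from 8.88 to 9.30 in WT (median 9.02) and 9.18, 8.97 and 9.06 in KI testes. KO 1 and KO 3 lay above every WT testis and KO 2 lay inside the WT range. The difference was 0.20 (interval -0.05 to 0.45, adjusted p = 0.322). It was 0.10 without KO 1, 0.33 without KO 2 and 0.12 against the KO littermates.

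**Figure D2:**
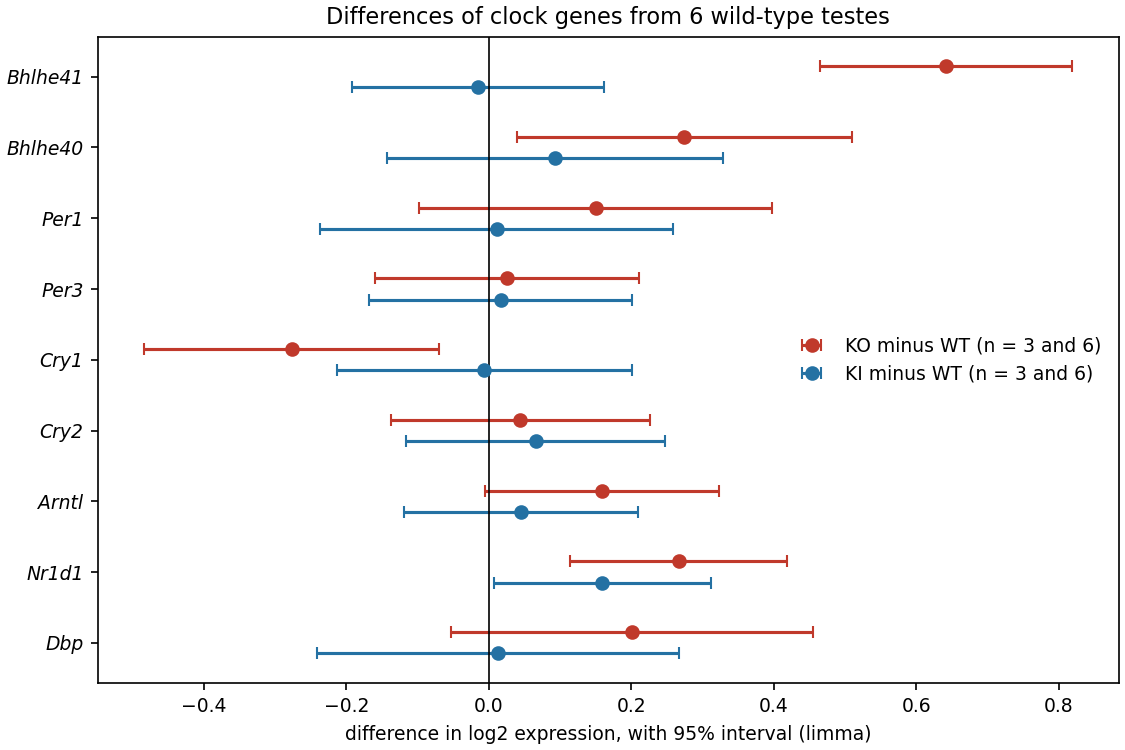
Difference in log2 expression from the 6 WT testes (x axis) for each clock gene (y axis) in KO (red) and KI (blue) testes, with limma's 95% interval as the bar. The Bhlhe41 interval in KO testes, 0.47 to 0.82, is a description and no test, since the gene was chosen for its change. The KO interval of Nr1d1 runs from 0.11 to 0.42, and Cry1 (-0.48 to -0.07) is the only gene whose KO interval lies wholly below 0.

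In KI testes the clock members stayed close to WT. None of the 8 passed, and none of the 22180 genes did (0.0%), so a count of 0 is the background here. At an unadjusted p under 0.05 there was 1 member (Nr1d1), beside 5.24% of all genes. The 8 differences ran from -0.01 to 0.16 with a median of 0.03. Between KI and KO testes again no gene passed (0.0%; 721 passed without KO 2), with 1 member (Cry1) at an unadjusted p under 0.05 beside 18.0% of all genes. Bhlhe41 differed by -0.66 (interval -0.86 to -0.45) there, as a description. The direct test of whether the mutants changed a gene differently, each against its own littermates, gave no call for any of the 8 members or any gene (0.0%), with 5.83% of all genes at an unadjusted p under 0.05. The largest such differences among the members were 0.24 for Arntl (adjusted p = 0.848) and -0.24 for Cry1 (adjusted p = 0.874). The KO and KI comparisons share their 6 WT testes. Against its own littermates alone, each mutant gave a count of 0 of 8. For KO this stood beside 0.00902% of all genes, with 3 members (Cry1, Arntl and Nr1d1) and 15.7% of all genes at an unadjusted p under 0.05. For KI it stood beside 0.0%, with no member and 4.51% of all genes, and Nr1d1 was the 1 member without overlap, beside 14.4%. The WT testes of KI litters and of KO litters differed in no gene by limma's adjusted test (0.0%; 50 genes without WT 5), and 0 of 8 members and 5.29% of all genes reached an unadjusted p under 0.05.

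Within the KO group the testes did not deviate alike. KO 1 and KO 3 were above the WT mean for Dbp (0.40 and 0.26), Per3 (0.11 and 0.16) and Nr1d1 (0.32 and 0.37). KO 2 was below it for Dbp (-0.05) and Per3 (-0.19) and closer to it for Nr1d1 (0.11), and had the largest positive Arntl deviation (0.29). Bhlhe41 did not share that split, at 0.60, 0.63 and 0.70 above the WT mean in the 3 KO testes. The list of meiotic prophase markers split the KO testes in the same way, with a mean level of 7.62 in KO 1, 7.73 in KO 3 and 8.40 in KO 2. The Sertoli, Leydig, peritubular, macrophage and endothelial lists also set KO 2 apart, each with its lowest KO mean there. For the Sertoli list these means were 10.11 in KO 1, 10.13 in KO 3 and 9.86 in KO 2. For undifferentiated spermatogonia KO 2 (6.88) lay between KO 1 (6.80) and KO 3 (6.95).

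**Figure D3:**
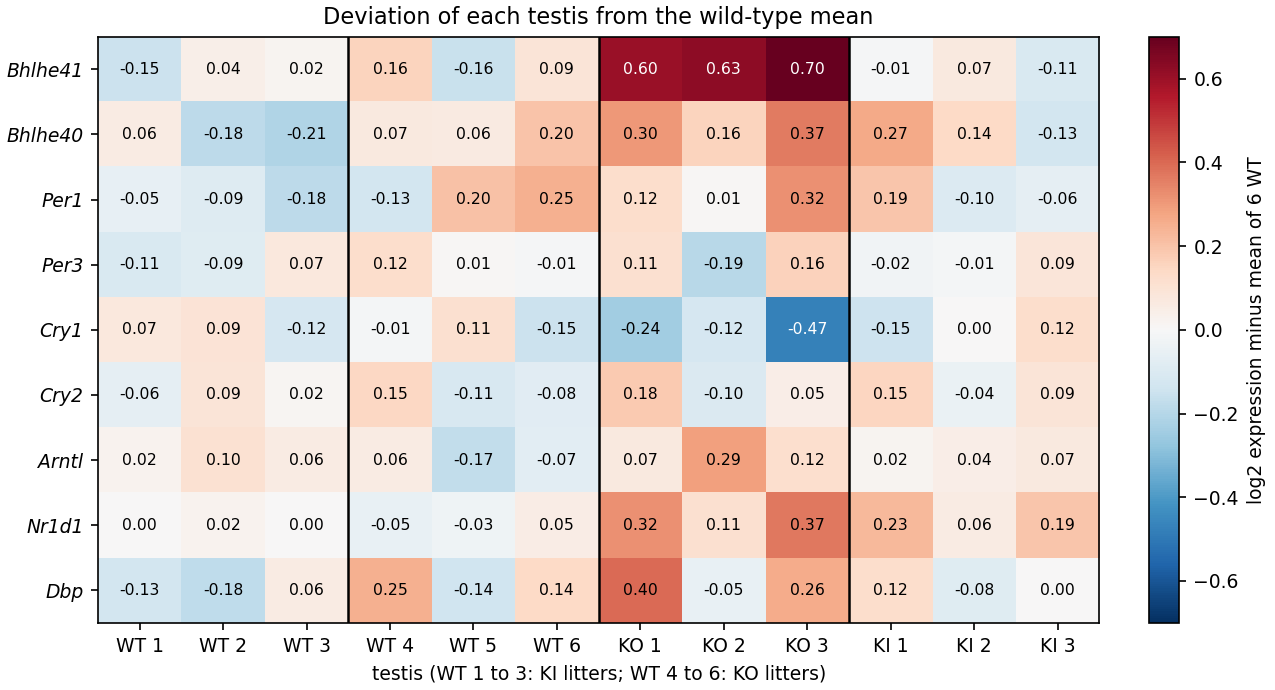
Log2 expression of each clock gene (rows) in each testis (columns) minus the mean of the 6 WT testes, as colour and as printed values, with lines between the groups. The Bhlhe41 row is 0.60 to 0.70 in all KO testes, while in KO 2 Dbp and Per3 are below 0 and Arntl is at 0.29.

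Opposite movement of Arntl and the other members was looked for over the 12 arrays, since Arntl peaks in opposite phase to Per and Dbp where the clock cycles. Of the 7 relations tested (Bhlhe41 left out), none passed. Pearson's r lay between -0.31 (Per1) and 0.32 (Nr1d1) and Spearman's rho between -0.20 (Cry1) and 0.45 (Nr1d1). The smallest permutation p was 0.314 for r and 0.146 for rho, and after Benjamini-Hochberg adjustment over the 7 relations the smallest values were 0.755 and 0.816. Without KO 2 and WT 5, the testes with the most extreme Arntl levels, r for Per3 went from -0.26 to 0.37 and r for Per1 from -0.31 to -0.23. Within the 6 testes of KO litters r for Per1 was -0.38 and within those of KI litters -0.51. The sign differed between KO and KI litters for 5 of the 7 genes, at 0.33 and -0.80 for Bhlhe40, -0.46 and 0.48 for Cry1, 0.42 and -0.24 for Nr1d1, 0.18 and -0.43 for Dbp, and -0.32 and 0.13 for Per3. The 12 arrays and each litter set hold mutant and WT testes together. These values therefore mix differences between genotypes with those between single testes.

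Markers of other cells moved with the KO genotype. Of 19 measured meiotic prophase markers 16 fell, 0 rose and the other 3 missed the threshold, around a median of -0.98. The mean level of the list was 7.62 to 8.40 in KO, 8.56 to 9.04 in WT and 8.44 to 8.78 in KI testes, and 1 member, Spag6, was at background. Of 10 markers of undifferentiated spermatogonia, 3 rose (Gfra1, Ret and Etv5) and 7 did not, with list means of 6.80 to 6.95 in KO and 6.64 to 6.72 in WT testes. The list means of the KI testes, 6.78 to 6.89, also lay above those of all WT testes, so this shift was not particular to KO. No marker of the list was called in KI testes. Of the 10 markers, Nanos2 and Eomes were at background. Of 12 Sertoli markers 4 rose and 8 did not, with list means of 9.86 to 10.13 in KO and 9.65 to 9.85 in WT testes. Of 5 measured Leydig markers 1 rose and 4 did not, with list means of 9.17 to 9.43 in KO and 8.12 to 9.04 in WT testes. In whole testis, fewer cells of a type and less RNA per cell cannot be told apart. Of 5 progenitor and 5 differentiating spermatogonial markers 1 each fell, and of 6 peritubular, 7 macrophage and 5 endothelial markers none passed. The mean of the meiotic markers was put in as a covariate, an alternative chosen after seeing the data. The Bhlhe41 difference in KO testes was then 0.51, that of Nr1d1 was 0.07 and that of Bhlhe40 was -0.05. That of Arntl grew from 0.16 to 0.32. The list mean was lower in every KO testis than in any other, so the fit separates covariate and genotype poorly. In that fit 1 of 22180 genes was called in KO testes. The part of the other marker lists in the clock gene differences was not tested.

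Further clock genes were examined as a list drawn up by function. Of its 24 genes 21 were measured, and in KO testes 1 rose, none fell and 20 did not pass, beside 4.86% called over all genes. Their median difference was 0.01. The gene that rose was Csnk1e, which encodes a casein kinase that phosphorylates PER proteins. It was 7.96, 7.69 and 8.09 in KO 1 to KO 3, from 7.21 to 7.70 in WT (median 7.26) and 7.71, 7.40 and 7.60 in KI testes. KO 2 lay just inside the WT range, whose upper end was formed by WT 4 and WT 6. The difference was 0.53 (SE 0.13, 1.44-fold, adjusted p = 0.0444). The call was lost when any 1 of 9 arrays was left out (KO 1, KO 3, WT 1, WT 2, WT 3, WT 5 and each KI testis, with adjusted p from 0.0544 to 0.194). It was also lost with array quality weights (adjusted p = 0.0504) and with median centring (adjusted p = 0.0515), and against the KO littermates alone the difference was 0.38 (adjusted p = 0.233). With the meiotic covariate it was -0.07. The activators Clock (-0.02) and Npas2 (0.06), the second receptor Nr1d2 (0.01) and the Dbp relatives Tef (0.03) and Hlf (0.19) did not pass, and their values were picked for mention by role after they were seen. At an unadjusted p under 0.05 there were 5 of 21 (Csnk1e, Hlf, Timeless, Fbxw11 and Sirt1), near the 24.2% of all genes.

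Related helix-loop-helix genes were examined as a family list of 9 HES, HEY and ID genes. HES and HEY proteins share the basic helix-loop-helix and Orange domains with BHLHE41, and ID proteins bind helix-loop-helix partners and keep them from DNA. In KO testes 1 rose (Id2), none fell and 8 did not pass, beside 4.86% of all genes. At an unadjusted p under 0.05 there were 4 of 9 (Heyl, Id1, Id2 and Id3), beside 24.2% of all genes. KO and WT did not overlap for 2 of 9 (Heyl and Id2), beside 11.5% of all genes. Id2 was 9.54, 9.44 and 9.49 in KO 1 to KO 3 and 9.11 to 9.28 in WT (median 9.17), with no overlap, and 9.40, 9.27 and 9.30 in KI testes. The difference was 0.31 (SE 0.06, 1.24-fold, adjusted p = 0.0311). Leaving out KO 1, KO 3, WT 1, WT 2, WT 3 or WT 5 ended the call (adjusted p from 0.0594 to 0.144), as did the KO littermates alone as control (0.31, adjusted p = 0.155). Id3, named after its value was seen, was 0.47 higher and just missed (adjusted p = 0.0513).

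**Figure D4:**
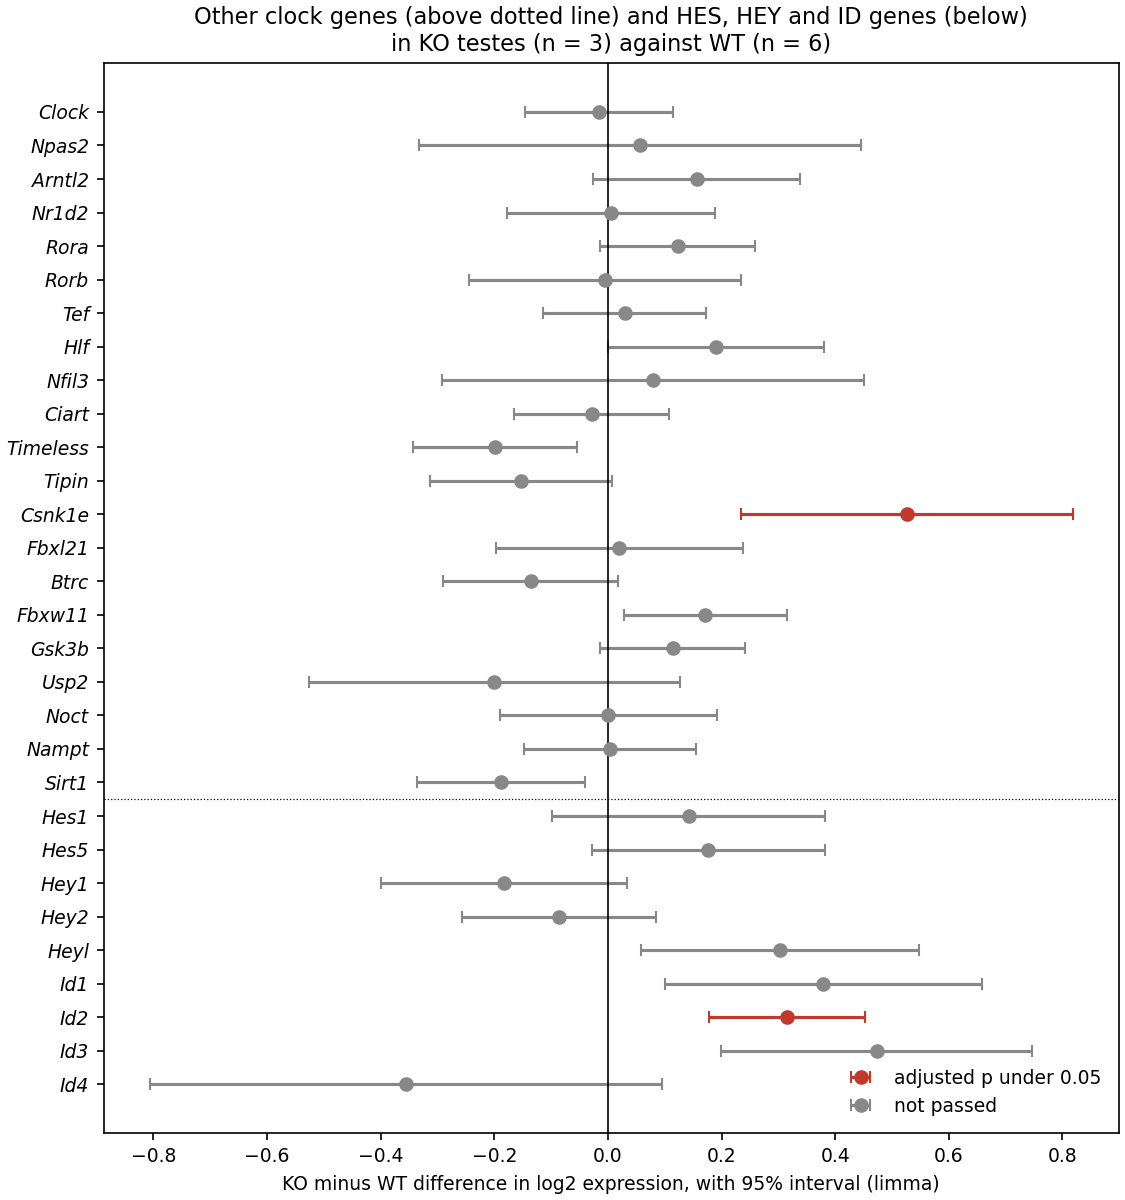
KO minus WT difference in log2 expression (x axis) for 21 further clock genes (above the dotted line) and 9 HES, HEY and ID genes (below), with limma's 95% interval as the bar and genes past an adjusted p of 0.05 in red. Csnk1e (0.53) and Id2 (0.31) are the genes in red, and most other intervals cross 0.

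The 5 genes whose levels across the 12 arrays resembled Bhlhe41 most were on none of the clock lists. Among 14546 genes above background, the 5 highest Pearson's r were those of Mblac2 (0.957), Flna, the actin cross-linker filamin A (0.945), Fam114a1 (0.928), Zadh2 (0.928) and Ctdsp1 (0.928). The 5 lowest were Coq5 (-0.955), an enzyme of ubiquinone synthesis, Pemt (-0.955), which methylates phosphatidylethanolamine, P4ha1 (-0.953), Ticrr (-0.941), a replication initiation factor, and Top2a (-0.937). The points share the KO genotype, so any gene that sets KO apart ranks high. Of the clock members, Nr1d1 and Arntl (both 0.64), Bhlhe40 (0.60) and Dbp (0.59) were the most alike and Cry1 (-0.79) the most opposite, with Nr1d1 at rank 2232 of 14546. Genes of the 2 further lists came closer, led by Id3 (0.846, rank 229), Id2 (0.803), Csnk1e (0.783) and Fbxw11 (0.776, rank 741). Timeless (-0.836) was the most opposite gene of those lists.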

How the data were processed

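Log2 expression values per transcript cluster (41345 clusters, 12 arrays, 1 testis each) were deposited by the authors; the submitters' processing notes list Affymetrix Expression Console, Partek 6.6 and RMA without saying what each did. The sources used here do not state the background correction or annotation release. Clusters with 1 gene symbol (23521) were kept, and where a gene had several the 1 with the highest mean stood for it, giving 22180 genes. Differences were estimated with limma 3.58.1 in R 4.3.3 (lmFit, eBayes, no filter) over 3 genotypes, or over 4 label groups for the litters and own-litter contrasts, and adjusted by Benjamini-Hochberg. Exact permutation tests, and the ranks and adjustment for the correlations, used scipy 1.17.1. The correlations and their 100000 permutation draws used numpy 2.4.6. The labels call the replicates biological.

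The members and gene lists were chosen with earlier results of these data known. All 10 members were named by rule. From the further clock list and the HES, HEY and ID list each gene past the threshold was named, and the 5 genes of highest and lowest correlation with Bhlhe41. The fit was tested on simulated data, with 200 of 22180 genes changed in each of 5 runs of KO against 6 WT. Of genes changed by 0.5 and 1 on the log2 scale, 55.4% and 91.6% were recovered. Alternatives were other scalings, a filter, other cluster means, weights, priors, controls, a replicate block and leaving out each array. The number of arrays limits the precision.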

Additional observations from a re-analysis of the deposited data

Results flagged for a closer look

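Timeless, a gene named for its clock role in flies and known in mammals from replication forks, had 1 WT testis far from the others. WT 1 stood at 7.32, while the other WT testes lay between 7.12 and 7.19. This was the only such array among 39 clock and helix-loop-helix genes looked at in the 6 WT testes, where chance gives about 1 in 20. The KO difference of Timeless was -0.20 (adjusted p = 0.0936).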

How the results depend on the processing

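Bhlhe41 stayed 0.51 to 0.67 higher in KO than in WT testes over 22 alternatives, and its direction held in all of them. The lowest value, 0.51, and the difference of -0.55 between KI and KO came from the meiotic covariate added after seeing the data. With single arrays left out the range was 0.61 to 0.67 for KO and -0.06 to 0.03 for KI against WT. The count of other members called in KO testes, 0 of 8, was 2 among genes above the median level (Nr1d1 and Cry1, with fewer genes tested), 1 with a new quantile normalization and 1 with an intensity trend and robust prior (Nr1d1), and 0 to 1 with single arrays left out. It was 0 in every alternative for KI against WT, KI against KO and the WT litters. With the meiotic covariate the sign turned for Bhlhe40 (-0.054), Cry1 (0.0548), Cry2 (-0.18), Csnk1e (-0.0696), Dbp (-0.36), Per1 (-0.11) and Per3 (-0.25). Among the 8 members it held for Nr1d1 (0.07) and for Arntl, whose difference grew from 0.16 to 0.32. The cause was not tested. Per3 was -0.0153 against KO littermates and -0.041 to 0.13 with single arrays left out, and Cry2 was -0.026 to 0.12. The number of genes called in KO testes was 2459 above the median level, 2048 with the trend, 1 with the covariate and 2 to 2323 with single arrays left out. Between KI and KO, where none passed, it was 57 above the median level, 5 with the trend, 247 with the block and up to 721 with single arrays left out, and between the WT litters 1 with the trend and up to 50. Same-numbered testes correlated between -0.03 and 0.16 in their deviations. Testes of different numbers were not compared, so this does not decide whether the numbers pair them. A replicate block leaves WT 4 to WT 6, whose numbers no mutant shares, out of the mutant differences, so its control is the WT of KI litters alone. With the replicate number as a block Bhlhe41 was 0.67 higher in KO testes, 0 of 8 members were called, 1468 genes passed and Id2 lost its call (adjusted p = 0.0573).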

Other observations

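The genes next to Bhlhe41 on chromosome 6, in the gene order of GRCm38.p6, were looked at after the data were seen. Rassf8 on one side averaged 6.92 ± 0.12 over the 3 KO testes (SD) and 6.66 ± 0.07 over the 6 WT testes (SD), a difference of 0.27 (limma adjusted p = 0.0524). Sspn, which encodes sarcospan, on the other side averaged 6.29 ± 0.16 and 5.93 ± 0.12 over the same testes (SD), a difference of 0.37 (adjusted p = 0.0533). Neither passed. Farther out on the Sspn side, Itpr2, an inositol trisphosphate receptor gene, was lower by 0.39 (difference -0.39, adjusted p = 0.0847). Ints13, beyond it, differed by -0.27 (adjusted p = 0.107). Farther out on the Rassf8 side, 1700073E17Rik differed by -0.04 (adjusted p = 0.875) and Gm15706 by -0.09 (adjusted p = 0.708). In KI testes the differences of Rassf8 and Sspn were 0.08 and -0.0003 (adjusted p = 0.986 and 0.999).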
